A study of Homo sapiens with 3 samples.

Results

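The imprinted miRNA clusters of chromosome bands 14q32 and 19q13 were examined in 3 cancer-derived cell lines. Members were taken by miRNA number and chromosome from the deposited tables, with all letters and arms. This gave 91 mature miRNAs at 95 loci on chromosome 14 and 62 mature miRNAs at 78 loci on chromosome 19, so 153 of the 2588 mature miRNAs listed. The lines were Huh-7 (liver, hepatocellular carcinoma), C643 (thyroid, anaplastic carcinoma) and ES-2 (ovary). Parental cells, unedited and without any treatment, were grown in medium with fetal bovine serum and harvested 48 hours after they were seeded. Each line was represented by 1 small RNA library, so no difference has a replicate check and no test between lines was possible. The libraries held 8183100 (C643), 1663181 (ES-2) and 2173587 (Huh-7) reads on annotated miRNAs. miR-122-5p, the miRNA that defines hepatocytes, had 288469 reads in Huh-7, 468 in C643 and 6 in ES-2, and no single miRNA marker was set for the thyroid and ovarian lines.

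Imprinted genes are expressed from the chromosome of 1 parent only. At 14q32 the paternal chromosome expresses the protein-coding genes DLK1, RTL1 and DIO3, and the maternal chromosome expresses MEG3, further long non-coding RNAs and a long row of miRNA hairpins cut from these transcripts. These miRNAs are best known from brain, placenta and embryonic tissue. The 19q13 cluster, also called C19MC, occurs in primates, is expressed from the paternal chromosome and is known for its high level in placenta. Many of its miRNAs carry the letters AAGUGC near the 5′ end, which places them beside the miR-17, miR-302 and miR-372 families. The seed, bases 2 to 8 of a mature miRNA, pairs with target mRNAs.

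The mature sequences came from RefSeq (GRCh38.p14), which held 90 of the 91 members of 14q32 and 56 of the 62 of 19q13. The 4 sequences below held 48.5% of the 14q32 reads of C643. Capitals mark the seed.
miR-487b-3p: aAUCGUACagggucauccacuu
miR-369-3p: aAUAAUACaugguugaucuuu
miR-409-3p: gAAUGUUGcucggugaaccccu
miR-654-3p: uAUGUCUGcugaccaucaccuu

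The next 4 are shown because they led in Huh-7 or because their arms differed, as described further on. miR-379-5p and miR-379-3p are the arms of 1 hairpin, and miR-411-5p comes from the hairpin next to it.
miR-323a-3p: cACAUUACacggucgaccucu
miR-379-5p: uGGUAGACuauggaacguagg
miR-379-3p: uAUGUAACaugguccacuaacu
miR-411-5p: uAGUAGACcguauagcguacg

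The last 3 are the members of 19q13 that had any read.
miR-1323: uCAAAACUgaggggcauuuucu
miR-519a-5p: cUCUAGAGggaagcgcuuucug
miR-516b-5p: aUCUGGAGguaagaagcacuuu

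From its first to its last mature miRNA the 14q32 cluster spans chr14:100852409-101066786, and the 19q13 cluster spans chr19:53666692-53762418, both on the plus strand (GRCh38). Of 51 precursors of 14q32 with a sequence, 34 lay inside an annotated non-miRNA gene on the same strand (GENCODE 29), mostly MEG8, AL117190.1, MEG9 or MIR381HG. Only 2 of these overlapped an exon, MIR770 in MEG3 and MIR410 in MEG9. miR-487b-3p lies at chr14:101046505-101046526 in an intron of MIR381HG. miR-409-3p at chr14:101065346-101065367 and miR-369-3p at chr14:101065641-101065661 lie in introns of MEG9. miR-654-3p at chr14:101040269-101040290 overlaps no such gene. On 19q13, 1 of 41 precursors overlapped another gene on its strand.

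The summed 14q32 cluster was highest in C643, lower in Huh-7 and lowest in ES-2. It had 1109 reads in C643, 79 in Huh-7 and 11 in ES-2. As shares of all miRNA reads these were 0.0136% (Wilson 95% CI 0.0128 to 0.0144), 0.00363% (0.00292 to 0.00453) and 0.000661% (0.000369 to 0.00118). The 3 intervals did not overlap, and intervals cover counting error only. C643 exceeded ES-2 20.5-fold by share (exact 95% CI 11.4 to 41.2) and Huh-7 3.73-fold (2.97 to 4.75), and Huh-7 exceeded ES-2 5.50-fold (2.91 to 11.5). If ES-2 had held the share of C643, its depth would have given 225 reads. miR-122-5p, with 0.00572% of the reads of C643, stood above any single cluster member there, and its part in the result was not tested. The cluster itself was lower in Huh-7, the line rich in miR-122-5p, than in C643, which does not test the part of miR-122-5p. C643 was deposited in a table of its own and the library totals differ, so lines were compared by share, and the reads are printed as the counts behind the shares. On the scale of the deposited values C643 over Huh-7 was 5.84-fold and Huh-7 over ES-2 2.91-fold.

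Detection followed the same order. At least 1 read was found for 29 of the 91 members in C643, 19 in Huh-7 and 4 in ES-2, which is 31.9%, 20.9% and 4.40%. Over all miRNAs, 25.1% had a read in C643, 33.2% in Huh-7 and 23.5% in ES-2. At least 10 reads were reached by 18 members (19.8%) in C643, 2 (2.20%) in Huh-7 and 0 in ES-2, against 21.3%, 19.8% and 12.6% of all miRNAs. When C643 and Huh-7 were thinned to the depth of ES-2, the expected number of detected members was 21.1 and 16.9.

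**Figure D1:**
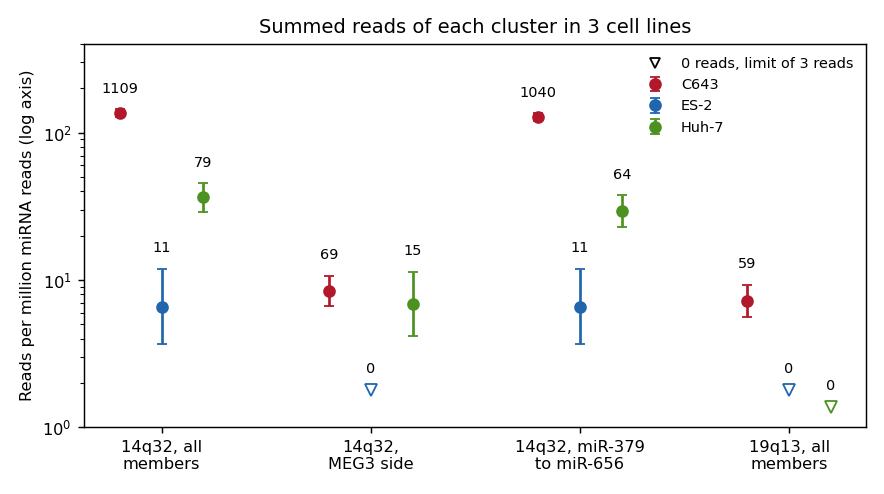
Reads per 1000000 miRNA reads (log axis) of the 14q32 cluster, its 2 segments and the 19q13 cluster in C643, ES-2 and Huh-7, 1 library each. Bars are Wilson 95% intervals, numbers are reads, and open triangles stand at the limit of 3 reads for libraries with 0. C643 lies above the other lines for the whole 14q32 cluster, while on the MEG3 side its interval overlaps that of Huh-7.

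No member was abundant. The leading member, miR-487b-3p, ranked 247 among the miRNAs of C643. It had 174 reads in C643 against 1 in Huh-7 and 0 in ES-2, so nearly all of its reads came from C643. By share it was 11.8-fold higher in C643 than in ES-2, taking 3 reads for ES-2 (exact 95% lower limit 9.49). Against Huh-7 it was 46.2-fold higher in C643 (exact 95% CI 8.19 to 1836).

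miR-369-3p, known for binding AU-rich elements of mRNAs, was the exception in ES-2. It had 8 reads there, 18 in Huh-7 and 138 in C643. It was the leading member in both ES-2 and Huh-7 and the only one with more than 1 read in ES-2, where miR-382-5p, miR-382-3p and miR-485-3p had 1 read each. C643 exceeded ES-2 3.51-fold (1.73 to 8.28) and Huh-7 2.04-fold (1.24 to 3.54), and the interval of Huh-7 over ES-2 (0.712 to 4.58) held equality. The ES-2 total therefore rested on this miRNA.

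miR-409-3p, cut from a hairpin near that of miR-369, had 123 reads in C643, 4 in Huh-7 and 0 in ES-2. miR-654-3p had 103, 1 and 0 in the same order. miR-485-3p had 79, 2 and 1. All 3 were concentrated in C643, by 8.17-fold (3.11 to 30.5), 27.4-fold (4.8 to 1091) and 10.5-fold (2.81 to 88.1) over Huh-7. miR-379-3p had 65 reads in C643 and 0 in both other lines. With 3 reads taken for them, this put it 4.40-fold above ES-2 and 5.76-fold above Huh-7 (exact lower limits 3.48 and 4.55). miR-494-3p had 53 reads in C643 and 1 in Huh-7, miR-543 had 43 and 2, and both were at 0 in ES-2.

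A second set of members was as high by share in Huh-7 as in C643 within counting error. All of these had 0 reads in ES-2. miR-323a-3p had 51 reads in C643 and 14 in Huh-7, and the ratio of C643 to Huh-7 was 0.968 (0.528 to 1.89). miR-411-5p had 23 and 7 reads and a ratio of 0.873 (0.363 to 2.41). For miR-379-5p, with 53 and 8 reads, it was 1.76 (0.831 to 4.29). miR-493-5p (25 and 5 reads) and miR-493-3p (33 and 5) had ratios of 1.33 and 1.75, with intervals that held 1. These intervals are wide and do not show that the lines were alike.

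The remaining members with 10 or more reads had few or none outside C643, the deepest library. miR-134-5p, which in neurons limits the size of dendritic spines, had 26 reads in C643 and 0 in the others. miR-654-5p had 27 and miR-376c-3p 21 in C643, again with 0 in the others. miR-382-5p, with 24 reads in C643, had a single one elsewhere, from ES-2. Its ratio of C643 to ES-2 was 4.88 by share, with an interval (0.795 to 201) that held 1. miR-329-3p had 31 reads in C643, 10 and 21 at its 2 loci as deposited, and 1 in Huh-7. By share C643 exceeded Huh-7 8.23-fold (1.37 to 336). miR-127-3p, which is encoded opposite to RTL1 and complementary to it, had 3 reads in C643 and 0 elsewhere. With so few reads in the deepest library, its 0 in the others does not show a difference.

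A 4-fold difference by share was counted over miRNAs with at least 10 reads in 1 of the 2 libraries compared, with 3 reads as the floor. Against ES-2, 5 members of 14q32 were at least 4-fold higher in C643, namely miR-379-3p, miR-654-3p, miR-487b-3p, miR-485-3p and miR-409-3p, where 14.9% of 577 miRNAs were. Against Huh-7 there were 6, the same 5 and miR-494-3p, where 14.6% of 698 miRNAs were. In each comparison 18 members of 14q32 were past the limit of 10 reads, each of them with at least 10 reads in C643, so these counts carry no weight beyond description. No member past the limit was at least 4-fold lower in C643, where 8.49% of all miRNAs were lower against ES-2 and 33.8% against Huh-7. These percents include miRNAs that passed through ES-2 or Huh-7 alone, so the absence among members carries no weight either. Between Huh-7 and ES-2 only miR-323a-3p and miR-369-3p were past the limit, and 0 members were called, against 36.7% of 564 miRNAs higher in Huh-7 and 13.3% higher in ES-2.

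The make-up of the cluster differed between C643 and Huh-7. miR-487b-3p held 15.7% of the 14q32 reads in C643 (13.7 to 17.9) and 1.27% in Huh-7 (0.224 to 6.83). miR-654-3p held 9.29% (7.72 to 11.1) and 1.27%. In the other direction miR-323a-3p held 4.60% in C643 (3.51 to 6.0) and 17.7% in Huh-7 (10.9 to 27.6), and miR-369-3p held 12.4% (10.6 to 14.5) and 22.8% (14.9 to 33.2). The intervals of these 4 miRNAs, and of miR-411-5p with 2.07% and 8.86%, did not overlap between the lines. The same held for miR-432-5p (0.271% and 5.06%) and miR-382-3p (0.0902% and 2.53%), which had no more than 4 reads in a library. Overlap of intervals was not counted over other miRNAs. All these percents are of the cluster total, which by share was 3.73-fold higher in C643 than in Huh-7. By share of the library, the ratio of C643 to Huh-7 was 0.968 for miR-323a-3p and 2.04 for miR-369-3p.

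**Figure D2:**
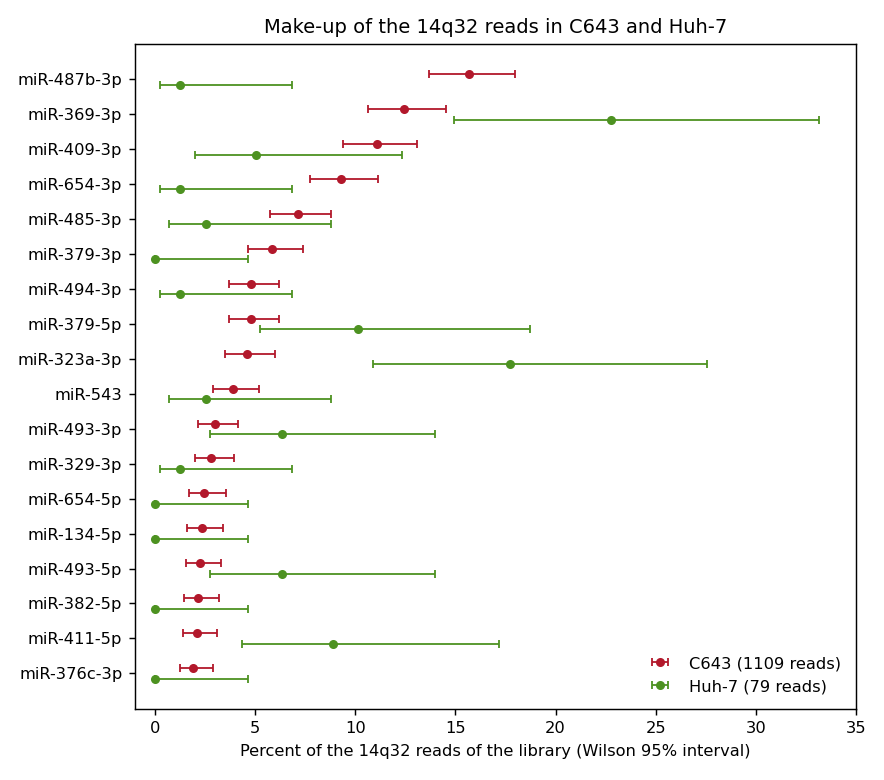
Percent of the 14q32 reads of C643 (1109 reads) and of Huh-7 (79 reads) held by each of the 18 members with at least 10 reads in a library, with Wilson 95% intervals. miR-487b-3p and miR-654-3p stand to the right in C643, and miR-323a-3p, miR-369-3p and miR-411-5p in Huh-7.

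Along the chromosome the reads were unevenly placed. The MEG3 side runs from miR-770 to miR-370 and has 18 members, several of them opposite to RTL1. It had 69 reads in C643, 15 in Huh-7 and 0 in ES-2. The segment from miR-379 to miR-656 has 73 members and had 1040, 64 and 11 reads. By share the ratio of C643 to Huh-7 on the MEG3 side was 1.22 (0.692 to 2.3). This interval held 1 but is wide and does not show that the lines were alike. The other segment was 4.32-fold higher in C643 (3.35 to 5.65). The MEG3 side accordingly made up 6.22% of the 14q32 reads in C643 (4.95 to 7.80) and 19% in Huh-7 (11.9 to 29). On that side miR-493 supplied 58 of the 69 reads in C643 and 10 of the 15 in Huh-7, where miR-432-5p had 4 and miR-433-3p had 1.

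**Figure D3:**
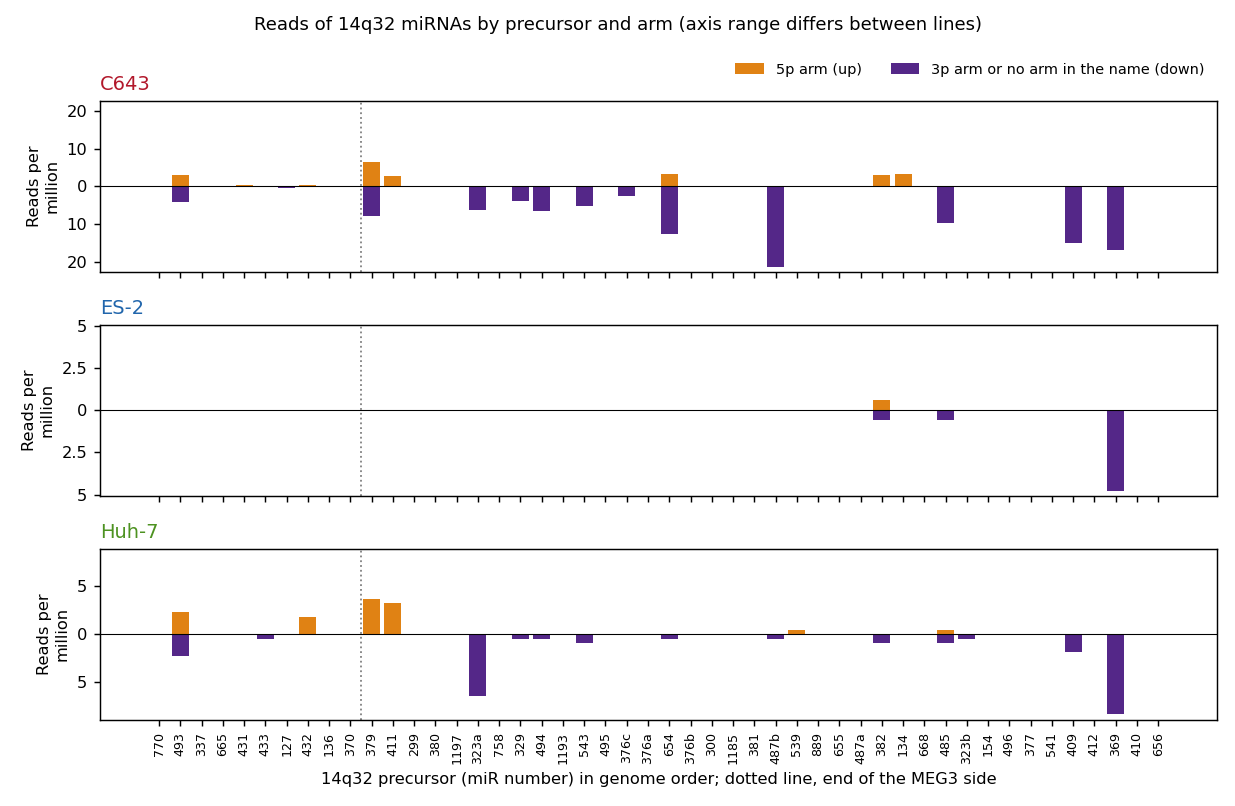
Reads per 1000000 miRNA reads of each 14q32 precursor in genome order for C643, ES-2 and Huh-7 (the axis range differs between panels). The 5p arm is drawn upward, and the 3p arm or a miRNA with no arm in its name downward. The reads of C643 are spread over the row with the tallest bar at miR-487b, those of Huh-7 are led by miR-369 and miR-323a, and ES-2 shows miR-369 and a few single reads.

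A hairpin gives a 5p and a 3p product, and at 14q32 more reads came from 3p rows in each library. In C643, 882 reads came from rows named 3p and 184 from rows named 5p, so 82.7% were 3p. Huh-7 had 51 and 26 (66.2%) and ES-2 10 and 1. Arm use was not counted over other miRNAs, so these values do not show a trait particular to the cluster. Of 14 precursors of C643 with at least 10 reads over both arms, 9 had a 5p share with an interval below 50%. For 3 precursors the interval lay above it. The 5p share was 0% for miR-487b (95% upper limit 2.16%), miR-369 (2.71%) and miR-409 (3.03%), and 1.25% for miR-485 (0.221 to 6.75). The 3 precursors on the 5p side were miR-134 with 100% (87.1 to 100), miR-411 with 100% (85.7 to 100) and miR-382 with 96.0% (80.5 to 99.3). Both arms were well represented for miR-379, with 53 reads of 5p and 65 of 3p, for miR-493 with 25 and 33, and for miR-654 with 27 and 103. In Huh-7 the minimum was reached by miR-369, with 0 reads of 5p among 18, miR-323a, with 0 among 14, and miR-493, with 5 of each. miR-369 and miR-323a thus gave 3p reads alone in both lines.

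**Figure D4:**
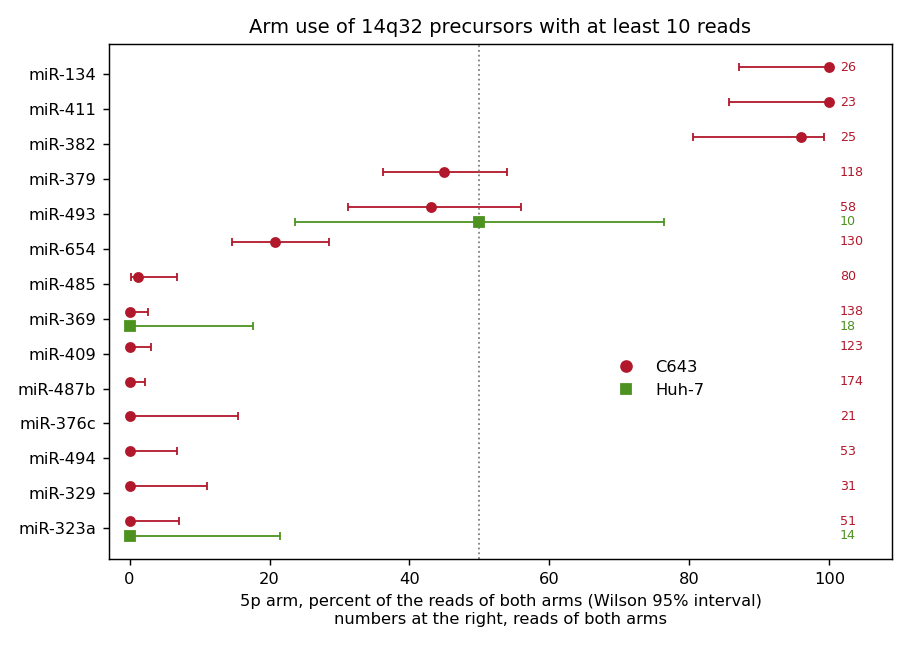
Share of the 5p arm among the reads of both arms for 14q32 precursors with at least 10 reads, in C643 (circles) and Huh-7 (squares), with Wilson 95% intervals and the reads of both arms at the right. Most precursors of C643 sit near 0%, miR-134, miR-411 and miR-382 near 100%, and miR-379 and miR-493 near the dotted line at 50%.

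The 14q32 miRNAs shared few seeds. The 90 members with a sequence had 79 seeds, of which 69 belonged to 1 member. The seeds of miR-487b-3p, miR-369-3p, miR-409-3p and miR-654-3p were found in no other miRNA of the tables with a sequence. miR-329-3p has the seed ACACACC in common with miR-362-3p from another chromosome, which had 62 reads in C643, 122 in Huh-7 and 15 in ES-2, more than the 31, 1 and 0 of miR-329-3p.

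The 19q13 cluster had few reads. It had 59 reads in C643, 0.000721% of miRNA reads (0.000559 to 0.00093), and 0 in ES-2 and Huh-7, where 3 reads would be shares of 0.00018% and 0.000138% (Wilson 95% upper limits 0.000231% and 0.000177%). C643 was thus 4.0-fold above ES-2 and 5.22-fold above Huh-7 with 3 reads taken for those libraries (exact lower limits 3.15 and 4.12). At the share of C643, Huh-7 would have had 15.7 reads and ES-2 12. In C643, 3 of the 62 members had a read, which is 4.84% against 25.1% of all miRNAs. Of the 62, 15 lie at several loci, and some members share a mature sequence. How reads with several matches were assigned is not known. Whether the counts of 0 depend on it was not tested.

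miR-1323 had 32 reads in C643, miR-519a-5p 22 and miR-516b-5p 5, and all 3 were at 0 in the other lines. The hairpin of miR-1323 lies at chr19:53671968-53672040, and the 2 hairpins of miR-516b-5p lie at chr19:53725442-53725526 and chr19:53736845-53736934, with 3 and 2 reads as deposited. The mature sequence of miR-519a-5p is that of 6 members, so its reads cannot be given to 1 hairpin. No member was 4-fold apart between libraries under the rule. By share, 32 reads of C643 are 2.17-fold above ES-2 and 2.83-fold above Huh-7 with 3 reads taken for them.

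None of these reads came from the AAGUGC miRNAs for which the cluster is known. Among the 56 members with a sequence, 11 carry AAGUGC within bases 1 to 8 of the mature strand (19.6%), against 0.703% of 2135 miRNAs outside both clusters. All 11 had 0 reads in all 3 libraries. The 15 outside miRNAs with these letters made up 1.81% of the Huh-7 library, 0.712% of that of ES-2 and 0.337% of that of C643, led in each by miR-93-5p with 29861, 6855 and 20195 reads. The next sequences set 2 members with 0 reads beside 2 of the outside miRNAs with reads, with AAGUGC in capitals.
miR-520a-3p: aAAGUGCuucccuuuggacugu
miR-519d-3p: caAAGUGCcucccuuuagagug
miR-93-5p: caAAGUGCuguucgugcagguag
miR-17-5p: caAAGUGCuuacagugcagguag

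miRNAs that neighbour the 14q32 cluster differed in order from it, except miR-151b. miR-1247-5p, encoded beside DIO3 beyond the last member of 14q32, had 117 reads in Huh-7, 4 in C643 and 0 in ES-2, so it was highest where miR-487b-3p had 1 read. By share it was 29.8-fold higher in Huh-7 than in ES-2 with 3 reads taken for ES-2 (exact lower limit 23.9). C643 stood at 0.00908 of Huh-7 (0.00243 to 0.0239). miR-345-5p had 815 reads in C643 (0.00996%), 681 in Huh-7 (0.0313%) and 156 in ES-2 (0.00938%), so it was highest in Huh-7. Its ratio of C643 to ES-2 was 1.06 (0.894 to 1.27), and Huh-7 exceeded ES-2 3.34-fold (2.80 to 4.001). miR-342-3p, in an intron of EVL, had 583, 223 and 206 reads in the order C643, Huh-7 and ES-2. By share miR-342-3p was 0.575-fold in C643 what it was in ES-2 (0.49 to 0.678), and its ratio of Huh-7 to ES-2 was 0.828 (0.682 to 1.01). miR-342-5p had 17, 18 and 24 reads in that order, or 0.000208%, 0.000828% and 0.00144%. miR-151b had 189, 35 and 8, with the order of the cluster, and its ratio of C643 to Huh-7 was 1.43 (0.996 to 2.12). Whether the reads of miR-151b came from its own locus was not tested. miR-345-3p had 2 reads, both from ES-2, and miR-1247-3p had 0. miR-544a and miR-2392, which lie within or beside the cluster, had 0 reads in all libraries. Beyond the last member of the 19q13 cluster, miR-371a, miR-371b and miR-372 had 0 reads, and miR-373-3p had 4 in C643. miR-935 had 124, 0 and 28 in the order C643, Huh-7 and ES-2. The share of miR-935 in C643 was 0.900 of that in ES-2 (0.593 to 1.41).

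Of the 9 mature miRNAs of other imprinted loci, 7 were detected in Huh-7, 6 in C643 and 4 in ES-2. miR-483-3p, in an intron of the growth factor gene IGF2, had 22452 reads in Huh-7, 3264 in C643 and 0 in ES-2, and miR-483-5p had 8291, 774 and 0. In the same order miR-335-3p, in MEST, had 1501, 52 and 69 reads, and miR-335-5p had 770, 31 and 5. By share Huh-7 exceeded ES-2 16.6-fold for miR-335-3p (13.1 to 21.5), and C643 stood at 0.153 of ES-2 (0.105 to 0.223). miR-296-3p, near GNAS, had 32 reads in Huh-7 (0.00147%), 131 in C643 (0.0016%) and 78 in ES-2 (0.00469%), so ES-2 was highest and the ratio of C643 to ES-2 was 0.341 (0.256 to 0.458). miR-296-5p had 1, 61 and 8 reads in the same order, with a ratio of C643 to ES-2 of 1.55 (0.739 to 3.75). miR-675-5p of H19 had 1 read in Huh-7, and miR-675-3p and miR-298 had 0 throughout. The order of C643, Huh-7 and ES-2 seen at 14q32 was therefore not that of the IGF2 and MEST miRNAs, which were highest in Huh-7.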

How the data were processed

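Total RNA (50 ng) of 3 parental lines was made into small RNA libraries (NEXTflex) and sequenced on an Illumina HiSeq instrument. The submitters' processing notes name cutadapt 1.14, Bowtie2 2.3.3, SAMtools 1.5, featureCounts 1.5.3, edgeR 3.18.1 and hg38. The miRNA annotation and the handling of reads with several matches are not given in the sources used here. The authors deposited 2 tables of a signal named CPM whose columns summed to 959302, 1154552 and 612015, so the values carry a factor between libraries or another library size. Dividing a column by its smallest value above 0 gave whole reads for 100% of the other values (tolerance 0.001 read).

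Reads were summed over loci and divided by the library total. Shares carry Wilson intervals and ratios exact conditional (Clopper-Pearson) intervals at 95%, without tests between lines. PCR copies are not independent molecules, which intervals and floors do not cover. A library at 0 was set to 3 reads. Named miRNAs were members with at least 10 reads, the 5 highest of a cluster with fewer, miR-122-5p, and the lists of neighbours and other imprinted loci. miR-127-3p, miR-382-3p, miR-432-5p, miR-433-3p and the miRNAs that share a seed, a motif or a sequence with a member were named after their values were seen. Members and lists were chosen with earlier results of these data known. Ratio intervals were tried on simulated counts at the depths of C643 and ES-2. The simulated trial of 4-fold calls used miRNAs with a higher mean share than any cluster member. It therefore does not cover calls on members. Alternatives were other denominators, loci, filters, pseudocounts, folds and scalings and a read test. Python 3.11.15 with scipy 1.17.1 was used.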

Additional observations from a re-analysis of the deposited data

How the results depend on the processing

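No paired analysis was possible because the 3 lines have 1 library apiece. Of 131 recomputed values, 87 stayed within counting error or within 1.5 times of a count, 44 moved, and none of the 131 changed direction. The order C643 over Huh-7 over ES-2 held for 14q32 in each alternative for its share, its ratios and its number of detected members. Depth limits ES-2 most.

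The 14q32 share in C643 was 0.019% without miR-21-5p in the denominator, 0.0161% with 1 locus per miRNA and 0.0114% without the most abundant member. In ES-2 it was 0.00018% without that member and 0% with miRNAs of at least 10 reads. In Huh-7 these settings gave 0.00281% and 0.00147%, the denominator without miR-21-5p 0.00545%, the deposited value per 1000000 0.00222%, and adding miR-544a, miR-2392 and miR-1247 0.00902%. The 19q13 share in C643 was 0.00101% without miR-21-5p in the denominator and 0.00033% without miR-1323.

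With at least 4 reads, 18, 1 and 8 members of 14q32 were detected in C643, ES-2 and Huh-7 (22.9%, 17.1% and 26.5% of all miRNAs), and the same numbers at a deposited value of at least 1 (21.4%, 21.3% and 26.5%). With at least 10 reads they were 18, 0 and 2.

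Without miR-369-3p, chosen after the data had been seen, 14q32 was 65.8-fold higher in C643 than in ES-2 and 15.6-fold higher in Huh-7 than in ES-2, which is also the value without the member with the most reads. On the deposited scale C643 exceeded Huh-7 5.84-fold and ES-2 17.0-fold for 14q32, Huh-7 exceeded ES-2 2.91-fold, and for 19q13 C643 was at least 8.19-fold and 3.32-fold above Huh-7 and ES-2. Without miR-1323, 19q13 was 1.83-fold and 2.39-fold higher in C643 than in ES-2 and Huh-7, again with 3 reads taken.

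Calls over both clusters are given with the percent of all miRNAs called in the same direction. For C643 against ES-2, the 5 of 20 members past the filter that were higher in C643 became 13 at 2-fold (36.2%), 2 at 8-fold (6.24%), 3 of 4 with a filter at 100 reads (22.8%), 14 with log2(value + 1) (21.3%) and 0 with log2(value + 10) (3.81%). For C643 against Huh-7 the 6 of 20 became 13 at 2-fold (24.2%), 3 at 8-fold (8.31%), 3 of 4 at 100 reads (23.6%) and 0 with log2(value + 10) (9.6%), and without a filter 1 member, miR-432-5p, was higher in Huh-7 (13.5%). For Huh-7 against ES-2, 1 of 2 members was higher in Huh-7 at 2-fold (64.5%) and with log2(value + 1) (31.9%). A two-sided exact binomial test on the reads, which compares these libraries and not the lines, with Benjamini-Hochberg adjustment at 0.05, called 17 members higher in C643 than in ES-2 (266 of 577 miRNAs, 46.1%), 15 higher in C643 than in Huh-7 (207 of 698, 29.7%) and 1 higher in Huh-7 than in ES-2 (382 of 564, 67.7%). In both comparisons with C643, every member past the filter had at least 10 reads in C643. The counts of members called there therefore carry no weight beyond description. With at least 30 reads over both arms, 0 precursors of Huh-7 remained. For changes not built into the alternative, the cause was not tested.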

Other observations

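The following values were singled out after they had been seen, and none was tested. In C643 the 14q32 members fell into 11 with 1 to 3 reads and 18 with 21 reads or more, and 0 of the 29 detected had 4 to 20 reads. Of the 617 miRNAs detected outside both clusters, 107 (17.3%) had 4 to 20 reads and 46 (7.46%) had 1 to 3.

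The arms of miR-379 differed between lines. In Huh-7 all 8 reads were miR-379-5p (Wilson 95% CI of the 5p share 67.6 to 100%), below the limit of 10 reads, whereas C643 had 44.9% of 5p (36.2 to 53.9).

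miR-519a-5p has the same mature sequence as miR-518e-5p, miR-519b-5p, miR-519c-5p, miR-522-5p and miR-523-5p. Its row held 22 reads in C643 and the other 5 rows held 0, so the reads were not shared over the identical names, while the loci of miR-516b-5p had 3 and 2 reads and those of miR-329-3p 10 and 21. Which hairpin gave the 22 reads cannot be told from the mature sequence.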
